A study of Mus musculus with 35 samples.

Results

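The response to dexamethasone (Dex), a synthetic glucocorticoid (GC), was followed in lipopolysaccharide (LPS)-stimulated bone marrow-derived macrophages (BMDMs) from mice labelled AMPKα1-/-. It rests on the 6 libraries that the labels give as AMPKα1-/- and title as LPS with Dex (3) or LPS alone (3), of 35 libraries in the series. Values are FPKM (fragments per kilobase, relative to all fragments of a library), and 10765 of 47069 listed genes had a mean of at least 1 FPKM over the 6 libraries and were tested. All libraries are labelled C57BL/6. LPS BMDMs received LPS at 100 ng/ml for 24 h, and LPS + Dex BMDMs received the same LPS with 100 nM Dex for 24 h. The other groups used here were AMPKα1-/- BMDMs given vehicle or 100 nM Dex for 24 h (3 libraries each) and wild-type BMDMs given vehicle, Dex, LPS or LPS + Dex (3 libraries each, except LPS with replicates 2 and 3). No wild-type LPS replicate 1 is among the 35 libraries of the series. Marrow from femur and tibia was grown in medium conditioned by L929 cells, so the cells had matured in culture before any treatment.

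GCs bind the glucocorticoid receptor (GR, encoded by Nr3c1), which moves to the nucleus, activates genes through GC response elements and represses many genes driven by NF-κB, AP-1 and interferon regulatory factors. LPS is a bacterial ligand of Toll-like receptor TLR4 and induces cytokines, chemokines and, by way of type I interferon, antiviral genes. AMP-activated protein kinase (AMPK) is a sensor of cellular energy made of a catalytic α, a scaffold β and a nucleotide-binding γ subunit. AMPKα1, encoded by Prkaa1, is the catalytic form known in macrophages.

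Prkaa1 (chr15:5143861-5181899, GRCm38) did not mark the genotype at the level of the whole gene. It was at 9.05, 11.2 and 10.5 FPKM in LPS and 12.5, 12.9 and 9.65 FPKM in LPS + Dex among the libraries labelled AMPKα1-/-, with overlapping groups (log2 fold change 0.17 ± 0.16 (SE), adjusted p = 0.445, limma). Wild-type BMDMs had 15.3 and 10.4 FPKM with LPS and 20.5, 13.7 and 8.59 FPKM with LPS + Dex. Over all 4 treatments Prkaa1 ran from 9.05 to 21.5 FPKM in the libraries labelled AMPKα1-/- and from 8.59 to 26.1 FPKM in wild-type. An FPKM summed over a gene cannot show whether an exon has been deleted, the sources used here give neither the design of the knockout nor the cells in which it acts, and the genotype therefore rests on the labels. Among the other subunits, Prkaa2, the other catalytic gene, stayed between 0.0204 and 0.0668 FPKM in the 6 libraries. The 10 tested genes of AMPK subunits and upstream kinases had a median log2 fold change of 0.17, and 2 of them rose, where 19.4% of all 10765 tested genes were called higher. With each library rescaled to an equal sum without the 5 transcripts most abundant in LPS + Dex, the median was 0.35 and 4 rose. Prkag2, a γ subunit, rose by 1.24 and Cab39, a partner of the upstream kinase LKB1, by 0.56 on the log2 scale (adjusted p = 1.60e-05 and 0.00288, limma).

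Fragments per library were not counted but inferred from the FPKM values and annotated gene lengths. The estimates were 21982580, 16903213 and 19887945 for LPS and 24806227, 18384604 and 18462007 for LPS + Dex. On a gene of 1 kb, 1 fragment was worth 0.0403 to 0.0592 FPKM, which bounds the differences in level that can be read. Across genes, which are not independent replicates, libraries correlated (Pearson, log2(FPKM + 1)) at 0.975 to 0.993 within a group and 0.862 to 0.905 between LPS and LPS + Dex libraries. The fraction taken by Saa3, which encodes an acute-phase serum amyloid, was 5.51%, 7.58% and 3.74% of the FPKM sum in LPS and 16.5%, 17.1% and 21.5% in LPS + Dex, so that each LPS + Dex library gave Saa3 a larger share than any LPS library.

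Libraries numbered 3 stood apart at the H2 (major histocompatibility) region. In all 4 AMPKα1-/- treatments, 14 of 11226 genes were higher in number 3 than the mean of the other 2 libraries by at least 1 log2 unit, and 11 of them lay on chromosome 17 between 33 and 38 Mb. Another 9 genes were lower in number 3 by the same measure, including 3 in that region. Numbers 1 and 2 also stood apart there, at fewer genes. Number 1 was lower at H2-Aa, H2-Ab1 and H2-Eb1 (3 of its 7 lower genes). Number 2 was higher at H2-Ea-ps and lower at H2-Ab1. The genes of that window that differed in number 3 included H2-Aa, H2-Ab1, H2-Eb1, H2-D1 and H2-Q7, and these 5 are given below with and without these libraries. What a replicate number stands for is not said in the labels or the study's methods. Counts of list members with the replicate number as a block are given where they moved by over 1.5 times.

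LPS + Dex changed a large share of the transcriptome. Of the 10765 genes, 4205 (39.1%) passed an adjusted p of 0.05 in the limma fit of the 12 AMPKα1-/- libraries, 2090 (19.4%) higher and 2115 (19.6%) lower than with LPS. The median log2 fold change over all tested genes was 0.00. Falls were larger than rises: 853 called genes fell and 633 rose by at least 1 log2 unit, and 79 fell and 13 rose by at least 4. The 3 LPS + Dex libraries lay wholly above or below the 3 LPS libraries for 5143 genes (47.8%), 2572 (23.9%) above and 2571 (23.9%) below. The balance depended on the scale. The transcripts most abundant in the LPS + Dex libraries labelled AMPKα1-/- were Saa3, Fth1, Lyz2, Lcn2 and Hp, of which all but Fth1 rose. With every library rescaled to an equal sum without these 5, a set picked from the LPS + Dex group and not from each library, 3146 genes rose and 1452 fell, and the all-gene median moved to 0.18. Fold changes below refer to log2(FPKM + 1), which understates changes of weakly expressed genes, and a list median that moved by over 1.5 times with the rescaled libraries, quantile normalization or without the libraries numbered 3 is followed by its range over these settings. Counts of list members called are to be read against the shares of all tested genes, 19.4% higher and 19.6% lower. In bulk RNA fewer cells of a type and less RNA per cell cannot be told apart.

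The deepest falls included cytokines, chemokines and antiviral genes, beside genes of other kinds that are named below. Il1a, an alarm cytokine of the interleukin-1 family, stood at 1777, 1734 and 1681 FPKM in LPS and 3.41, 3.83 and 5.84 FPKM in LPS + Dex. These groups were far apart, with a 397-fold lower mean after Dex (log2 fold change -8.36 ± 0.22 (SE), adjusted p = 1.88e-10, limma). Il12b, the p40 subunit shared by interleukin-12 and interleukin-23, was at 305, 406 and 435 FPKM in LPS and 0.678, 1.34 and 0.626 FPKM in LPS + Dex (433-fold lower, log2 fold change -7.67 ± 0.17 (SE), adjusted p = 6.98e-11). Ccl22, a chemokine that draws CCR4-bearing T cells, was at 679.9, 865 and 2457 FPKM in LPS and 0.768, 3.98 and 3.59 FPKM in LPS + Dex. The LPS libraries of Ccl22 differed from each other more than those of Il1a, but none came near an LPS + Dex library (log2 fold change -8.37 ± 0.45 (SE), adjusted p = 3.58e-08). The interferon-induced chemokine Cxcl10 was at 536, 324 and 994 FPKM in LPS and 1.32, 0.693 and 0.863 FPKM in LPS + Dex (645-fold lower, log2 fold change -8.17 ± 0.36 (SE), adjusted p = 8.56e-09).

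The remaining members of the 12 deepest falls were Cxcl3, Ptgs2, Serpinb2, Ccl2, Il6, Ifit3, U90926 and Usp18, whose log2 fold changes ran from -8.20 to -6.62. Ptgs2, the inducible cyclooxygenase, was at 821, 854 and 1632 FPKM in LPS and 4.64, 5.90 and 3.85 FPKM in LPS + Dex. Serpinb2, an inhibitor of urokinase, fell by 7.45 on the log2 scale. Il6, an inducer of the hepatic acute-phase response, was at 369, 269 and 647 FPKM in LPS and 1.49, 1.75 and 3.10 FPKM in LPS + Dex. All 12 genes had adjusted p-values of 2.83e-07 or less, and in each the highest LPS + Dex library lay below the lowest LPS library, which the choice of the 12 required.

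**Figure D1:**
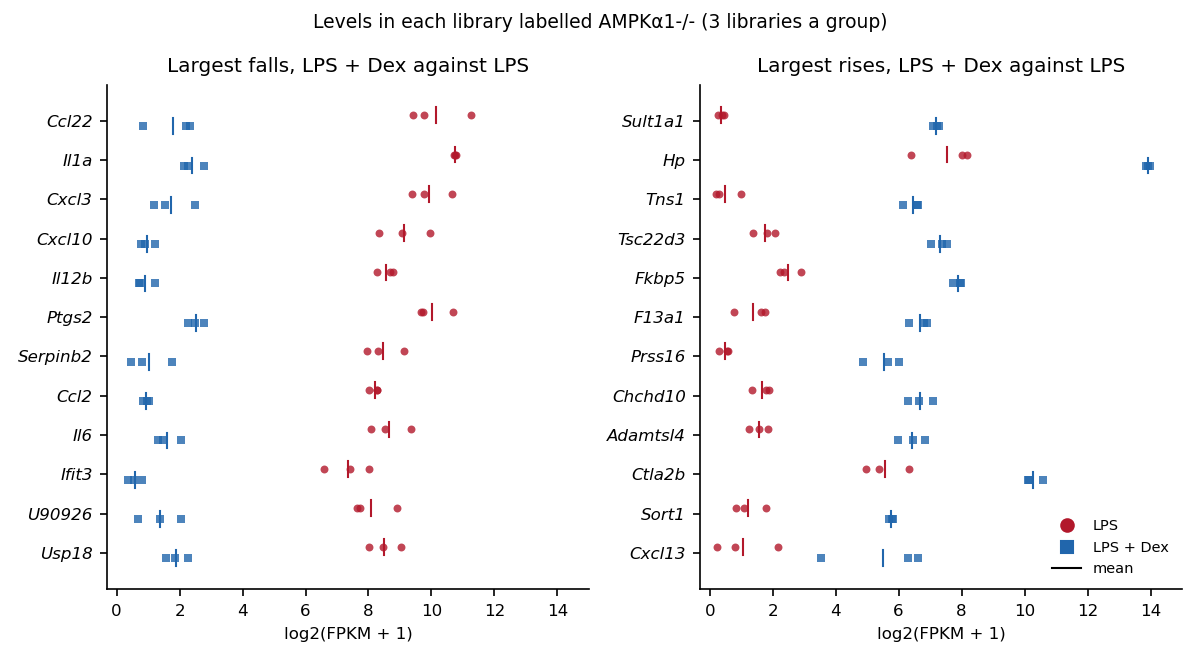
Levels as log2(FPKM + 1) for the 12 deepest falls and the 12 largest rises of LPS + Dex against LPS in libraries labelled AMPKα1-/-. Each point is 1 library, and the groups do not overlap for any of these genes, as the rule that chose them required. Il1a drops from between 1681 and 1777 FPKM to between 3.41 and 5.84 FPKM, whereas Sult1a1 climbs from at most 0.352 FPKM to at least 136 FPKM.

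Promoter sequences are shown for the 2 deepest falls that held an NF-κB or interferon motif and for 2 GC-raised genes that held a GC element, since these elements are the ones through which LPS and GCs are known to act. Windows run from 250 bases before to 50 bases after the transcript start, on the strand of the gene, and come from RefSeq (GRCm38.p6). Capitals mark matches to GGNNTTTCC (NF-κB), GAAANNGAA (core of the interferon-stimulated response element) or ACANNNTGT (core of the GC response element), each searched on both strands. Cxcl3 (chr5:90785851-90786150, plus strand) holds the NF-κB letters at -72 to -64. Cxcl10 (chr5:92348840-92349139, minus strand) holds the interferon letters at -213 to -205 and, as the reverse complement, the NF-κB letters at -158 to -150. Ctla2b (chr13:60897398-60897697, minus strand) holds the GC letters at -191 to -183, and S100a8 (chr3:90668821-90669120, plus strand) holds them at +25 to +33.
Cxcl3: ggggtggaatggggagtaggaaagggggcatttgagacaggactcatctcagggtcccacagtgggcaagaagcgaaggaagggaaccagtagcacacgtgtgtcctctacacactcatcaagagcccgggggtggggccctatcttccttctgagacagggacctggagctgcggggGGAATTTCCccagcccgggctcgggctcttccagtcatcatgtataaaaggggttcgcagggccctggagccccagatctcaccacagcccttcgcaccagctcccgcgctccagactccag
Cxcl10: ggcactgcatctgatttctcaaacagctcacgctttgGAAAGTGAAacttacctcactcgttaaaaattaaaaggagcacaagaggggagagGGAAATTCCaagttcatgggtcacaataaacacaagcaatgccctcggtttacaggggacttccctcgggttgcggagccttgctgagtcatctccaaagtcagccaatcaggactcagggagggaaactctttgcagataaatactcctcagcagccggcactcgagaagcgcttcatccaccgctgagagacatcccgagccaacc
Ctla2b: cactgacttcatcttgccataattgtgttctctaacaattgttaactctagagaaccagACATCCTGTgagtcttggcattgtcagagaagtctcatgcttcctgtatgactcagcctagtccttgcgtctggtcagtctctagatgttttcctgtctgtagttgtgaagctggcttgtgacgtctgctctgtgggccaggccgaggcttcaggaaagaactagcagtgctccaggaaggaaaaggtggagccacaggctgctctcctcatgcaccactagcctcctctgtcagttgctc
S100a8: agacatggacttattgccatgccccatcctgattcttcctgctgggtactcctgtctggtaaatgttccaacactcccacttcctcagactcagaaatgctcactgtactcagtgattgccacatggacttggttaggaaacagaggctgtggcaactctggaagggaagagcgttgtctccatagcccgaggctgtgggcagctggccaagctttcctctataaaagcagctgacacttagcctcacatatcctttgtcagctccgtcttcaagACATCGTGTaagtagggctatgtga
A match is a description, not a site or a cause.

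The interferon letters stood in 196 of 1604 promoters of genes called lower (12.2%), against 7.90% of promoters of genes called higher, 9.10% of all tested genes and 8.56% of all 32851 promoters in the table. Among interferon-stimulated antiviral genes, a list defined by interferon, 19 of 27 promoters (70.4%) held them. The NF-κB letters stood in 9.35% of promoters of genes called lower, 6.49% of those called higher, 7.50% of all tested genes and 5.82% of all promoters. The GC letters stood in 109 of 1633 promoters of genes called higher (6.67%), in 4.68% of those called lower, in 4.95% of all tested genes and in 6.85% of all promoters. Of the 12 largest rises, 9 had a promoter in the table and 1 of these held the GC letters. These shares carry no test, and the windows do not reach distant enhancers.

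Sult1a1 gave the largest rise. This phenol sulfotransferase was nearly absent with LPS and well expressed with LPS + Dex, at 0.352, 0.203 and 0.303 FPKM in LPS and 154, 148 and 136 FPKM in LPS + Dex (log2 fold change 6.84 ± 0.19 (SE), adjusted p = 1.88e-10, limma). Hp, which encodes the haemoglobin-binding protein haptoglobin, was at 254, 288 and 83.1 FPKM in LPS and 15517, 14745 and 16350.1 FPKM in LPS + Dex. The lowest LPS + Dex library of Hp was far above the highest LPS library (74.5-fold higher mean, log2 fold change 6.40 ± 0.43 (SE), adjusted p = 2.04e-07). Tsc22d3, which encodes the GC-induced leucine zipper GILZ, was at 1.56, 3.16 and 2.50 FPKM in LPS and 129, 167 and 185 FPKM in LPS + Dex (log2 fold change 5.58 ± 0.17 (SE), adjusted p = 4.01e-10). Fkbp5, a co-chaperone that lowers the affinity of GR for its ligand, was at 4.10, 3.69 and 6.39 FPKM in LPS and 211, 250.1 and 249 FPKM in LPS + Dex (log2 fold change 5.4 ± 0.17 (SE), adjusted p = 5.91e-10).

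Among the other large rises, Tns1 (a focal adhesion protein) rose by 5.96, F13a1 (the A chain of coagulation factor XIII) by 5.30 and Sort1 (the sorting receptor sortilin) by 4.54 on the log2 scale. Prss16 (a serine protease of the thymus), Chchd10 (a mitochondrial intermembrane protein) and Adamtsl4 (a matrix protein) rose by 5.05, 5.02 and 4.86. Ctla2b, a homologue of a cathepsin propeptide, was at 40.3, 78.6 and 30.4 FPKM in LPS and 1091, 1120.2 and 1524 FPKM in LPS + Dex, but it has a near-identical neighbour in Ctla2a and its counts are uncertain for that reason. Cxcl13, a chemokine for B cells, was at 0.752, 3.5 and 0.175 FPKM in LPS and 77.5, 98.0 and 10.7 FPKM in LPS + Dex. It was the least even of the 12, since the third LPS + Dex library had 10.7 FPKM and the other 2 had 77.5 and 98.0 FPKM (log2 fold change 4.42 ± 0.68 (SE), adjusted p = 2.26e-04).

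Most known GC-induced genes rose. Of 24 tested members, 17 were called higher and 2 lower, with a median log2 fold change of 1.81 against 0.00 for all genes. The 2 called lower were Zfp36 and Cdkn1a. Glul, which encodes glutamine synthetase, was at 63.5, 66.8 and 47.2 FPKM in LPS and 845, 856 and 906 FPKM in LPS + Dex (3.87). Mt2, a metallothionein, rose by 3.58, and Dusp1, the phosphatase that switches off p38 and JNK, rose from 37.5, 52.3 and 52.0 FPKM to 249, 292 and 400.0 FPKM (log2 fold change 2.69). Klf4 (a transcription factor of myeloid cells), Cd163 (the haptoglobin-haemoglobin scavenger receptor) and Mertk (a receptor for apoptotic cells) rose by 2.29, 2.23 and 1.31. Per1 of the circadian clock and the decoy receptor Il1r2 rose by 1.62 and 1.66.

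GR itself was slightly more abundant with LPS + Dex, although 1 library overlapped with the LPS group. Nr3c1 was at 19.6, 20.7 and 26.2 FPKM in LPS and 34.6, 35.6 and 25.2 FPKM in LPS + Dex (log2 fold change 0.50 ± 0.15 (SE), adjusted p = 0.0184, limma). Its call was lost without any of 4 single libraries, LPS or LPS + Dex numbered 1 or 2, with values of 0.41 to 0.65 over all 6. Over all 19 alternative settings the call of Nr3c1 was lost under 7, with values of 0.41 to 0.77. Among 16 tested genes of GR and its chaperones, 4 rose and 6 fell, against 19.4% and 19.6% of all tested genes. Their median of -0.09 turned to 0.08 after the rescaling without the 5 most abundant genes. The chaperones Hsp90aa1, Hspa8 and Hsp90ab1 fell by 1.77, 1.42 and 1.21. Hsd11b1, which regenerates active GC from its inert keto form, rose by 1.18, and its call was lost without LPS + Dex number 1 (0.97).

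Cytokines fell. Of 18 tested pro-inflammatory cytokine genes, 15 were called lower and 0 higher (39.1% of all tested genes were called, 19.6% lower), with a median log2 fold change of -2.78. Il1b, the most abundant of them, was at 15096, 13839 and 11233 FPKM in LPS and 146, 206 and 92.1 FPKM in LPS + Dex. The groups were far apart (log2 fold change -6.56 ± 0.42 (SE), adjusted p = 1.66e-07, limma), although at least 92.1 FPKM remained in each LPS + Dex library. Csf2, which encodes the growth factor GM-CSF, fell by 5.2. Genes that damp cytokines did not move as 1 group: of 13 tested, 2 rose and 6 fell. Il1rn, the natural antagonist of the interleukin-1 receptor, was at 583, 723 and 688 FPKM in LPS and 28.1, 67.3 and 34.7 FPKM in LPS + Dex (-4.0), and the cytokine-signalling inhibitors Socs1 and Socs3 fell by 3.93 and 1.56. The decoy receptor Il1r2 was at 0.202, 0.329 and 0.503 FPKM in LPS and 4.17, 4.29 and 1.75 FPKM in LPS + Dex (1.66).

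All 10 tested CC chemokines fell, with a median log2 fold change of -5.03, and 10 of 12 CXC chemokines fell, with a median of -3.32. Ccl2, which recruits monocytes through CCR2, was at 307, 259 and 310.3 FPKM in LPS and 0.971, 0.797 and 1.02 FPKM in LPS + Dex (-7.24). Ccl4, a macrophage inflammatory protein, was at 276, 302 and 630.1 FPKM in LPS and 5.31, 4.45 and 10.3 FPKM in LPS + Dex (-5.68). Ccl5 had the smallest fall among the CC genes named, at 2664, 2548 and 5011 FPKM in LPS and 1034, 817 and 2423 FPKM in LPS + Dex (-1.35, adjusted p = 0.0368), and its call was lost without any of 4 single libraries, LPS number 1 or 3 or LPS + Dex number 1 or 2 (-1.82 to -1.03 over all 6). In all, the call of Ccl5 was lost under 10 of 19 alternative settings. The neutrophil attractants Cxcl2 and Cxcl1 fell by 5.53 and 5.31, and Cxcl13 was the single CXC gene called higher. Of 10 chemokine and formyl peptide receptors, 2 rose (1 without the libraries numbered 3) and 4 fell, against 19.4% and 19.6% of all tested genes. Ccr7, which guides cells to lymph nodes, fell by 5.19 and Ccrl2 by 2.81, whereas Cxcr4 rose by 0.46. The call of Cxcr4 was lost without LPS number 1 or 2 or LPS + Dex number 3, with values of 0.35 to 0.62 when 1 library was left out. In all, it was lost under 5 of 18 alternative settings.

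Every tested interferon-stimulated antiviral gene fell. All 35 were called lower, with a median log2 fold change of -3.96 against 0.00 for all genes. Ifit3, an inhibitor of viral RNA translation, was at 171, 95.1 and 260.1 FPKM in LPS and 0.739, 0.468 and 0.279 FPKM in LPS + Dex (354-fold lower). Usp18, the protease that removes ISG15 and restrains interferon receptor signalling, was at 351, 259.7 and 521 FPKM in LPS and 3.78, 2.58 and 1.96 FPKM in LPS + Dex (-6.62). Oasl2, Ifi44 and Ifit1 fell by 6.31, 6.12 and 6.12, and Bst2 (tetherin, which holds budding virus at the membrane) was at 3115, 3089.7 and 3497 FPKM in LPS and 878, 775 and 766 FPKM in LPS + Dex (-2.0). All 13 tested interferon-inducible GTPases fell too, with a median of -3.66. Gbp3 and Gbp5 fell by 5.47 and 5.06 and Tgtp2 by 4.97, though near-identical copies among the Gbp and Tgtp genes make the share of each gene uncertain.

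Of 21 interferon regulatory factors, STATs and receptor genes, 14 fell and 3 rose, with a median of -0.67. Irf7, the factor that amplifies type I interferon, was at 1929.6, 1732 and 2576 FPKM in LPS and 71.9, 62.2 and 35.5 FPKM in LPS + Dex (-5.21). Stat2 and Irf9, which carry the interferon signal to the nucleus, fell by 2.69 and 1.93. Ifngr1, a chain of the interferon γ receptor, went the other way, at 43.6, 54.1 and 50.2 FPKM in LPS and 237, 276 and 241 FPKM in LPS + Dex (2.33 ± 0.11 (SE), adjusted p = 1.10e-08, limma).

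**Figure D2:**
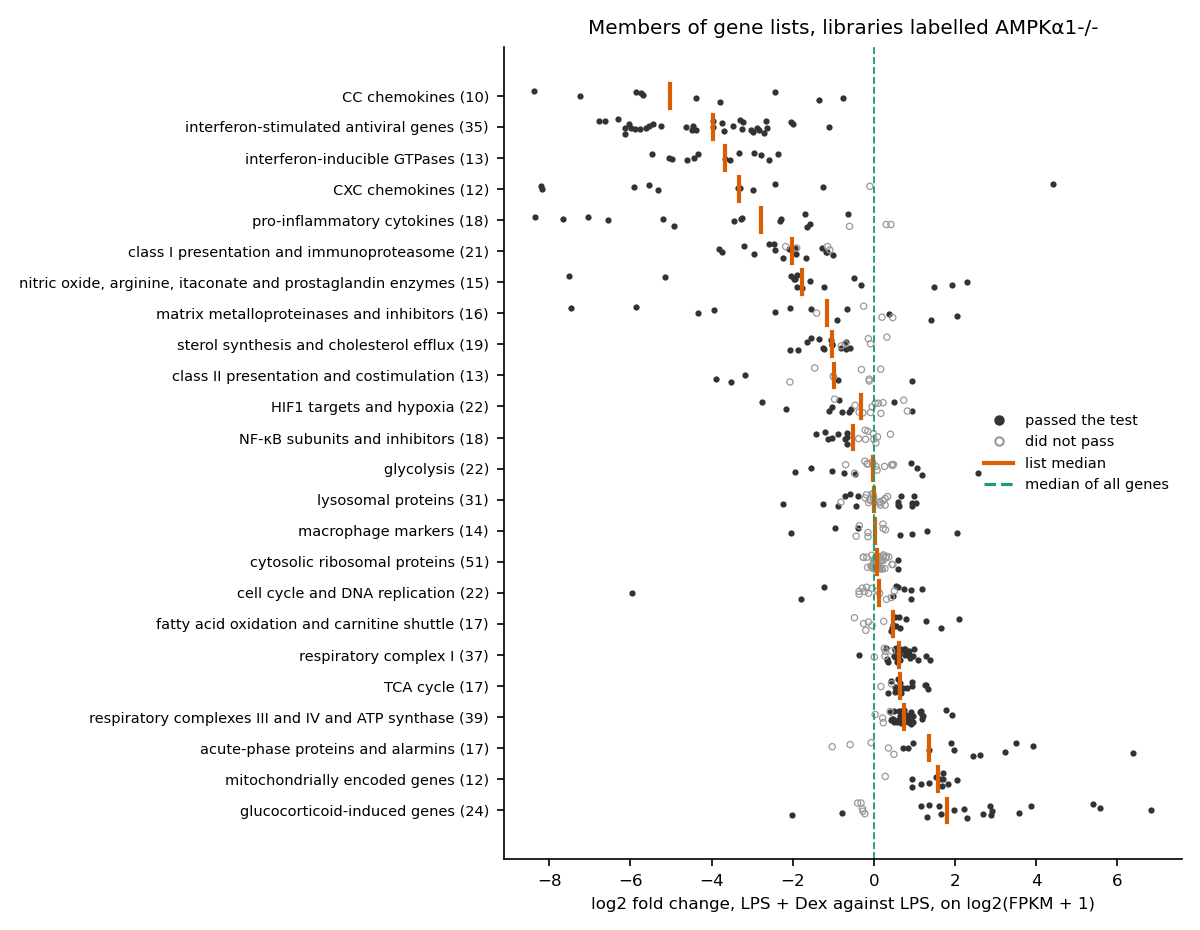
Change on Dex under LPS (log2 fold change) in libraries labelled AMPKα1-/- for the tested members of each gene list, 1 point per gene, with the list median. Interferon-stimulated genes (median -3.96) and CC chemokines (-5.03) lie to the left, and GC-induced (1.81), mitochondrially encoded (1.58) and acute-phase genes (1.35) to the right.

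Genes of class I antigen presentation fell. Of 21 tested genes for class I presentation and the immunoproteasome, 17 were called lower and 0 higher, with a median log2 fold change of -2.01. Tap1, which pumps peptides into the endoplasmic reticulum, was at 87.6, 94.7 and 212 FPKM in LPS and 10.4, 12 and 14.9 FPKM in LPS + Dex (-3.20). B2m, the light chain of class I molecules, was at 6826, 6217 and 6576 FPKM in LPS and 3148, 2882 and 2189.9 FPKM in LPS + Dex (-1.27). H2-T22, H2-T24, H2-Q4 and H2-T23 fell by 3.81, 3.74, 2.95 and 2.59, with the caution that class I genes share sequence. The members not called were H2-Q6, H2-Q7, H2-K1 and H2-D1, which lie in the region where libraries numbered 3 stood apart. H2-D1, a classical class I gene, was at 1208, 1169.5 and 6294 FPKM in LPS and 637, 595 and 2454 FPKM in LPS + Dex, and each number fell. H2-Q7 was at 0.15, 0.0975 and 343 FPKM in LPS and 0, 0 and 7.35 FPKM in LPS + Dex, so it was almost unread in libraries numbered 1 and 2. With the replicate number as a block 19 of the 21 genes were called lower, H2-K1 and H2-D1 among them (adjusted p = 0.000643 and 0.000108, limma), and H2-Q6 and H2-Q7 were not. Without the libraries numbered 3 the count was 17, as with all libraries, and H2-D1 was at -0.95 ± 0.78 (SE, adjusted p = 0.387) and H2-K1 at -0.89 ± 0.42 (SE, adjusted p = 0.132), while H2-Q6 and H2-Q7 were at -0.03 and -0.17.

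Class II genes of the same region, named here after their values were seen, also moved with the number. H2-Ab1, the β chain of I-A, was at 196, 226 and 1309 FPKM in LPS and 29.6, 49.3 and 514 FPKM in LPS + Dex. Its library numbered 3 was high in both groups and fell with Dex like the others (log2 fold change -2.07 ± 1.38 (SE), adjusted p = 0.266, limma). H2-Eb1, the β chain of I-E, was at 9.03, 16.8 and 80.9 FPKM in LPS and 2.32, 5.19 and 33.4 FPKM in LPS + Dex, and Cd74, the invariant chain encoded outside the region, was at 217, 277 and 566 FPKM in LPS and 80.1, 137 and 391 FPKM in LPS + Dex. Of 13 genes for class II presentation and costimulation, 4 were called lower and 1 higher, with the same counts when the libraries numbered 3 were left out, and 8 were called lower with the replicate number as a block. H2-Ab1, H2-Eb1, H2-Aa and Cd74 made up the difference. H2-Aa, the α chain of I-A, was at 31.3, 50.8 and 209 FPKM in LPS and 12.5, 23.1 and 134 FPKM in LPS + Dex. Without the libraries numbered 3 the log2 fold changes of H2-Ab1, H2-Eb1, H2-Aa and Cd74 were -2.43, -1.56, -1.18 and -1.22, and none was called (adjusted p of 0.109 to 0.35, limma). The costimulators Cd40 and Cd86 and the inhibitory ligand Cd274 (PD-L1) fell by 3.89, 3.52 and 3.17, while Cd80 rose by 0.93. With both libraries numbered 3 left out, 3687 of the 10765 genes were called, 1891 higher and 1796 lower.

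**Figure D3:**
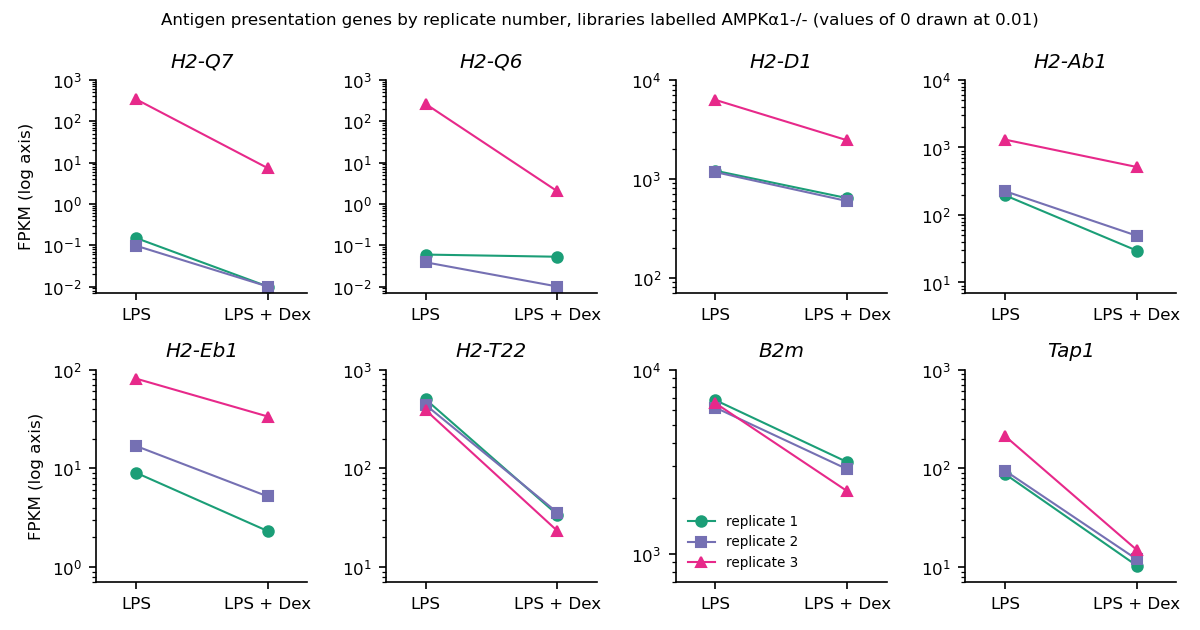
FPKM on a log axis for class I and class II genes in the AMPKα1-/- LPS and LPS + Dex libraries, with lines joining libraries of the same replicate number. H2-Ab1 in number 3 is at 1309 FPKM with LPS and 514 FPKM with LPS + Dex, above both other libraries of its group, and all 3 lines of H2-Ab1 slope downwards.

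The enzymes of nitric oxide, itaconate and prostaglandins mostly fell: 12 of 15 tested were called lower and 3 higher, with a median of -1.77. Nos2, the inducible nitric oxide synthase, was at 32.2, 46.0 and 48.3 FPKM in LPS and 0.250, 0.234 and 0.142 FPKM in LPS + Dex (-5.14). Acod1, which makes itaconate from aconitate, remained highly expressed, at 1347, 1313 and 992 FPKM in LPS and 416, 311 and 261 FPKM in LPS + Dex (-1.90). Alox5ap, which presents arachidonate to 5-lipoxygenase, rose by 2.29, while Hpgds, which makes prostaglandin D2, fell by 2.04. Among 16 metalloproteinases, plasminogen regulators and inhibitors, 9 fell and 3 rose (5 with the rescaled libraries), against 19.6% and 19.4% of all tested genes. The collagenase Mmp13, the elastase Mmp12 and the urokinase receptor Plaur fell by 5.87, 4.35 and 3.93, and Timp1, a metalloproteinase inhibitor, fell by 2.45.

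Receptors and signalling proteins upstream of these genes had smaller medians. Of 20 Toll-like receptor genes and adaptors, 8 fell and 3 rose, against 19.6% and 19.4% of all tested genes. Their median of -0.15 turned to 0.04 with the rescaled libraries. Tlr4, the LPS receptor, was at 26.6, 33.1 and 21 FPKM in LPS and 11.2, 12.8 and 6.29 FPKM in LPS + Dex (-1.36), and its co-receptor Cd14 at 2840.1, 2379 and 2463 FPKM in LPS and 1429.8, 1177 and 1371 FPKM in LPS + Dex (-0.95). Tlr13, a receptor for bacterial ribosomal RNA, rose by 1.78. Of 18 NF-κB subunits and regulators, 9 fell and 0 rose (median -0.51, range -0.51 to -0.28, with 7 falls when rescaled or without the libraries numbered 3), among them Nfkb2 (-1.42), Rel (-1.04) and the inhibitor Nfkbia (-0.66). Of 15 MAP kinase phosphatases and mRNA decay factors, 3 rose and 5 fell, against 19.4% and 19.6% of all tested genes. With the rescaled libraries 5 rose and 3 fell (median -0.04, range -0.11 to 0.14). Dusp16 and Dusp4 fell by 2.60 and 2.35, and Dusp1 and Zfp36l2, an mRNA decay factor, rose by 2.69 and 1.73. The decay factors Zfp36 and Zc3h12a and the phosphatase Dusp5 were also called lower, and Auh was called higher. Of 14 inflammasome genes, 3 rose and 5 fell, against 19.4% and 19.6% of all tested genes. The adaptor Pycard (ASC) rose by 1.84, while Casp1 and the sensor Nlrp3 fell by 1.67 and 1.02.

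Acute-phase proteins rose on top of LPS. Of 17 tested acute-phase and alarmin genes, 12 were called higher and 0 lower, with a median of 1.35. Saa3 was at 44192, 59262 and 28579.5 FPKM in LPS and 139167, 140798 and 194819 FPKM in LPS + Dex, the most abundant transcript of LPS + Dex BMDMs (3.60-fold higher mean, log2 fold change 1.89 ± 0.44 (SE), adjusted p = 0.00441, limma). The rise of Saa3 was 1.45 (adjusted p = 0.0573) without the libraries numbered 3 and 0.31 (adjusted p = 0.593) after quantile normalization, and 0.31 to 2.14 over all alternatives. Lcn2, which encodes the siderophore-binding lipocalin, was at 1964, 2046 and 1706 FPKM in LPS and 14758, 15797 and 24153 FPKM in LPS + Dex (3.23). S100a8, a subunit of calprotectin, was at 33.0, 24.0 and 17.4 FPKM in LPS and 307, 301 and 581 FPKM in LPS + Dex (3.92). Orm1 (orosomucoid), Steap4 (a metalloreductase) and Cp (ceruloplasmin) rose by 3.5, 2.61 and 0.96. Of 14 complement genes, 4 were higher (2 without the libraries numbered 3) and 4 lower, against 19.4% and 19.6% of all tested genes. Cd55, which protects host cells from complement, rose by 2.17, whereas Cfb (factor B) and Cfp (properdin) fell by 1.64 and 1.38.

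Genes of mitochondrial metabolism rose by small steps. Of 17 tested TCA cycle genes, 15 were called higher and 0 lower, with a median log2 fold change of 0.65. Idh3b, a subunit of isocitrate dehydrogenase, was at 102, 105 and 80.1 FPKM in LPS and 256, 247 and 223 FPKM in LPS + Dex. All LPS + Dex libraries of Idh3b lay above all LPS libraries (log2 fold change 1.34 ± 0.12 (SE), adjusted p = 2.20e-06, limma). Idh3a, Sdhd, Idh3g and Sdha rose by 1.3, 1.26, 0.95 and 0.93. Of 37 complex I genes, 31 rose and 1 fell (median 0.62), and without both libraries numbered 3 these counts were 24 and 1. Of 39 genes for complexes III and IV and ATP synthase, 35 rose and 0 fell (median 0.73).

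Genes encoded by the mitochondrial genome had a larger median. Of 12 tested mitochondrially encoded genes, 11 rose and 0 fell, with a median of 1.58. The most abundant, mt-Co1 of cytochrome oxidase, was at 3431, 2827 and 1997 FPKM in LPS and 5803, 5456 and 4371 FPKM in LPS + Dex (0.95). mt-Cytb, the cytochrome b of complex III, was at 746, 587 and 482 FPKM in LPS and 2279, 2156 and 1927 FPKM in LPS + Dex (1.83). Mitochondrial transcripts made up 1.21%, 0.977% and 0.798% of the FPKM sum in LPS and 1.93%, 1.83% and 1.62% in LPS + Dex. The lowest LPS + Dex library thus lay above the highest LPS library in this share too.

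In fatty acid oxidation and the carnitine shuttle, 11 of 17 genes were called higher and 0 lower (median 0.46). Ppargc1b, a coactivator of mitochondrial genes, was at 1.13, 1.33 and 1.15 FPKM in LPS and 7.83, 8.19 and 9.35 FPKM in LPS + Dex (2.10), and the β-oxidation enzymes Acaa2 and Hadh rose by 1.65 and 1.3. Of 22 glycolysis genes 4 rose and 5 fell, near the shares of all tested genes (19.4% and 19.6%), with a median of -0.03 (range -0.16 to 0.16). Pfkfb3, which makes the allosteric activator of phosphofructokinase, rose by 2.57 and the glucose transporter Slc2a3 by 1.2. The transporters Slc2a1 and Slc2a6 and the hexokinase Hk3 fell by 1.02, 1.54 and 1.93. Gapdh was at 2834, 3092 and 1829 FPKM in LPS and 2455, 2439 and 2494 FPKM in LPS + Dex (-0.03, adjusted p = 0.902).

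Of 22 HIF1 targets and hypoxia genes, 8 fell and 2 rose (4 rose under the replicate block), against 19.6% and 19.4% of all tested genes. Their median was -0.31 (range -0.39 to -0.13). Adm, the vasodilator adrenomedullin, fell by 2.75 and Bhlhe40, a transcriptional repressor, by 2.16, whereas Bnip3l, a receptor for mitophagy, rose by 0.93. In the pentose phosphate pathway 2 of 7 genes rose, against 19.4% of all tested genes. These were Taldo1 (0.71) and Pgls (0.44), and neither passed the test without the libraries numbered 3. The call of Pgls was also lost without LPS number 1 or LPS + Dex number 3 alone (0.43 and 0.28).

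Cholesterol genes fell together. Of 19 tested genes for sterol synthesis, uptake and efflux, 14 were lower and 0 higher, with a median of -1.02. Cyp51, the lanosterol demethylase of cholesterol synthesis, was at 126, 101 and 52.1 FPKM in LPS and 33.8, 31.1 and 19.0 FPKM in LPS + Dex (-1.65). The efflux transporter Abca1 was at 19.1, 37.1 and 17.3 FPKM in LPS and 3.87, 9.0 and 4.81 FPKM in LPS + Dex (-1.88), and Abcg1 and the oxysterol receptor Nr1h3 (LXRα) fell by 2.06 and 1.55. The list thus held synthesis and efflux genes that fell alike. Apoe, which accepts effluxed cholesterol, was at 114, 141 and 728 FPKM in LPS and 169.9, 155 and 867 FPKM in LPS + Dex and did not pass the test (adjusted p = 0.766), its libraries numbered 3 being high in both groups.

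Scavenger and efferocytosis receptors were split, with 6 of 20 higher and 7 lower, against 19.4% and 19.6% of all tested genes (median -0.29, range -0.30 to -0.11). Cd163 was at 0.0822, 0.0305 and 0.0519 FPKM in LPS and 5.37, 4.58 and 2.45 FPKM in LPS + Dex and Mertk at 17, 23.5 and 19.3 FPKM in LPS and 44.2, 55.1 and 52.6 FPKM in LPS + Dex. These rises stood against falls of Axl, a TAM receptor like Mertk, by 2.14, of Cd36 by 2.57 and of the β-glucan receptor Clec7a by 2.80. Of the 5 Fc γ receptor genes, Fcgr2b, Fcgr1 and Fcgr3 fell by 2.46, 2.03 and 1.03, Fcgr4 rose by 1.96, and the shared chain Fcer1g was at -0.05 (adjusted p = 0.788). For iron, 6 of 13 genes rose and 2 fell, the rises including Hp, Lcn2, Cd163 and the ferrireductase Steap3 (1.2), and the median of 0.13 ranged from -0.05 without the libraries numbered 3 to 0.33 when rescaled, both with 1 fall. Of 26 antioxidant genes 5 rose and 9 fell (8 rose with the rescaled libraries), against 19.4% and 19.6% of all tested genes. The glutathione peroxidases Gpx1 and Gpx4 rose by 1.68 and 1.15 and the transferase Gsta3 by 3.99, while Prdx1 fell by 1.06 with overlapping groups. The call of Prdx1 was lost without LPS number 1 or 3 or LPS + Dex number 2, with values of -1.45 to -0.75 when 1 library was left out. In all, it was lost under 7 of 19 alternative settings. Of 31 lysosomal genes 8 rose and 7 fell, against 19.4% and 19.6% of all tested genes, and with the rescaled libraries 14 rose and 4 fell (median -0.00, range -0.00 to 0.19). Cathepsin C (Ctsc) fell by 2.24 and cathepsin D (Ctsd) rose by 0.95.

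Transcription factors of the C/EBP, KLF, AP-1 and related families moved both ways, with 10 of 27 higher and 10 lower (median -0.14, or 0.05 with the rescaled libraries). Fos was at 7.29, 9.48 and 6.81 FPKM in LPS and 45.1, 47.7 and 85.8 FPKM in LPS + Dex (2.72), and Klf13 and Klf4 rose by 2.08 and 2.29. Egr2, Atf3 and Junb fell by 2.75, 2.69 and 1.47. Among 9 immediate early and heat shock genes 2 rose and 6 fell. The heat shock genes Hspa1b and Hspa1a, which are near-identical copies, fell by 4.07 and 3.79. In the circadian clock, Arntl (BMAL1) rose by 1.08 and Nr1d2 (REV-ERBβ) fell by 1.47, within 2 rises (4 with the rescaled libraries) and 3 falls among 10 genes, against 19.4% and 19.6% of all tested genes.

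Genes of proliferation and protein synthesis had medians near 0. Among all tested genes 19.4% were called higher and 19.6% lower, the shares against which the counts of this paragraph are read. Of 22 cell cycle genes 7 rose and 3 fell, with a median of 0.12 (range 0.12 to 0.26). Ccnd2, cyclin D2, was at 103, 134 and 286 FPKM in LPS and 1.25, 2.99 and 0.859 FPKM in LPS + Dex (-5.96), while Mcm7 of the replicative helicase and Rrm2 of ribonucleotide reductase rose by 1.18 and 0.92 and Mki67, the proliferation marker, fell by 1.79. The call of Rrm2 was lost without LPS number 3 or LPS + Dex number 1 or 2, with values of 0.70 to 1.27 when 1 library was left out. Of 51 cytosolic ribosomal proteins 2 rose (Rps9 by 0.59 and Rpsa by 0.59) and 0 fell, with 4 rises under the replicate block, 10 after rescaling and 0 without the libraries numbered 3. Their median was 0.08 (range 0.01 to 0.28), and the calls of Rps9 and Rpsa were also lost without LPS number 3 or LPS + Dex number 1 alone, and that of Rpsa without LPS + Dex number 3. In the unfolded protein response, 5 of 13 genes fell and 1 rose (8 fell under the replicate block and 2 when rescaled), with falls of Ddit3 (CHOP) by 1.10 and Asns by 1.06 and a rise of Herpud1 by 1.16.

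Macrophage markers were present in all 6 libraries. Of 14 tested, 4 rose and 3 fell, against 19.4% and 19.6% of all tested genes. Their median of 0.04 ranged from -0.04 without the libraries numbered 3 to 0.23 when rescaled. Adgre1 (F4/80) was at 1900.5, 2213 and 1719 FPKM in LPS and 2393, 2684 and 1821 FPKM in LPS + Dex (0.23, adjusted p = 0.376). Lyz2, lysozyme, was the most abundant, at 19951, 18106 and 10344 FPKM in LPS and 35795, 30515 and 24248 FPKM in LPS + Dex (0.94, or 0.65 to 1.12 when 1 library was left out, and not called without LPS number 3 or LPS + Dex number 1 or 2), and Csf1r, the receptor for M-CSF, rose by 0.64. Over all 19 alternative settings the rise of Lyz2 ran from 0.60 to 1.14, and its call was lost under 6. The summed FPKM of the markers was 28015, 25662 and 17641 in LPS and 42558, 37061 and 30332 in LPS + Dex, with Lyz2 the largest part. Of the sex-linked genes, Xist was listed at 0 in all 6 libraries and Ddx3y, Eif2s3y, Kdm5d and Uty were expressed in each, and none of the 4 passed the test.

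Markers of other cells were checked beside these results. Of 20 neutrophil markers 9 could be tested, of which S100a8, Ceacam10 and Lcn2 rose and Camp and Csf3r fell. Their summed FPKM was 2227, 2344 and 2019 in LPS and 15159.7, 16206 and 24866 in LPS + Dex, most of it Lcn2. Ly6g and Retnlg, which define neutrophils, were listed at 0 in all 6 libraries. Lymphocyte markers summed to at most 6.06 FPKM, and only Ighm of 13 reached the minimum level. Of 10 dendritic cell markers 4 were tested: Ccr7 and the integrin Itgax fell by 5.19 and 1.3, and the factor Batf3 rose by 1.68. The call of Itgax (adjusted p = 0.0446) was lost without any of 4 single libraries, LPS number 2 or 3 or LPS + Dex number 1 or 2 (-1.80 to -0.90 over all 6). In all, it was lost under 10 of 19 alternative settings. Fibroblast and endothelial markers summed to 30.5, 53.4 and 63.8 FPKM in LPS and 6.70, 10.7 and 4.07 FPKM in LPS + Dex, and the most abundant, Kdr (a VEGF receptor), fell by 4.82. No mast cell, basophil, eosinophil, erythroid or megakaryocyte marker of 17 listed reached the minimum level. The part of other cells in these results was not tested.

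Dex was also given without LPS. Against vehicle in the BMDMs labelled AMPKα1-/-, 2734 of the same genes (25.4%) passed, 1159 (10.8%) higher and 1575 (14.6%) lower with Dex, a balance that turned to 1542 against 1487 after quantile normalization. These libraries share none with the LPS and LPS + Dex groups. Of the 2090 genes higher in LPS + Dex than in LPS, 552 were also higher and 206 lower with Dex alone, at a median log2 fold change of 0.17. Of the 2115 genes lower in LPS + Dex, 587 were lower and 111 higher with Dex alone, at a median of -0.18.

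Levels in all 4 treatments differed in pattern from gene to gene. Tsc22d3 was at 53.3, 48.3 and 52.9 FPKM with vehicle and 744, 839.7 and 899 FPKM with Dex, a rise of 3.98 on the log2 scale without LPS. Its LPS libraries thus lay below vehicle, and its LPS + Dex libraries between vehicle and Dex. Sult1a1 followed the same order, at 17.4, 19.9 and 11.4 FPKM with vehicle and 277, 380.4 and 252 FPKM with Dex. Hp was at 11.2, 4.19 and 5.34 FPKM with vehicle and 407, 707 and 389 FPKM with Dex, so that the LPS + Dex libraries at 15517, 14745 and 16350.1 FPKM were far above both single treatments. Saa3 was at 241, 92.8 and 54.0 FPKM with vehicle and 1029, 1149 and 727 FPKM with Dex, a rise of 3.14 from a level far below that of LPS. Cxcl10 was at 1.77, 1.09 and 0.189 FPKM with vehicle and 0.121, 0.263 and 0.0750 FPKM with Dex, and its LPS + Dex libraries lay within the range of vehicle. The GC-induced list had a median of 1.55 with Dex alone and 1.81 on LPS. The mitochondrially encoded genes had medians of -0.25 and 1.58, the TCA cycle of 0.01 and 0.65, and the cell cycle of -1.03 and 0.12.

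The interaction of LPS with Dex tests these differences gene by gene. In the 12 libraries, 2947 of 10765 genes (27.4%) passed, 1540 (14.3%) with a response to Dex that was higher on LPS than without it and 1407 (13.1%) with one that was lower. This balance too depended on the scale, with 2445 higher and 894 lower (all-gene median 0.27) after the rescaling without the 5 most abundant genes. The smallest p-values were those of Il12b, Slc1a2, Il1a, Cd69 and Nos2. Il12b had an interaction of -7.65 ± 0.24 (SE), adjusted p = 4.83e-09, and Slc1a2, a glutamate transporter, was at 38.1, 49.8 and 40.3 FPKM in LPS and 0.117, 0.126 and 0.252 FPKM in LPS + Dex with an interaction of -5.16. Cd69, an early activation antigen, was at 258, 228 and 231 FPKM in LPS and 7.53, 5.47 and 5.12 FPKM in LPS + Dex and had an interaction of -4.88. For Hp the interaction was 0.37 ± 0.60 (SE), adjusted p = 0.703, and for Saa3 -1.25 ± 0.62 (SE), adjusted p = 0.163. All are differences of log2 fold changes from limma.

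**Figure D4:**
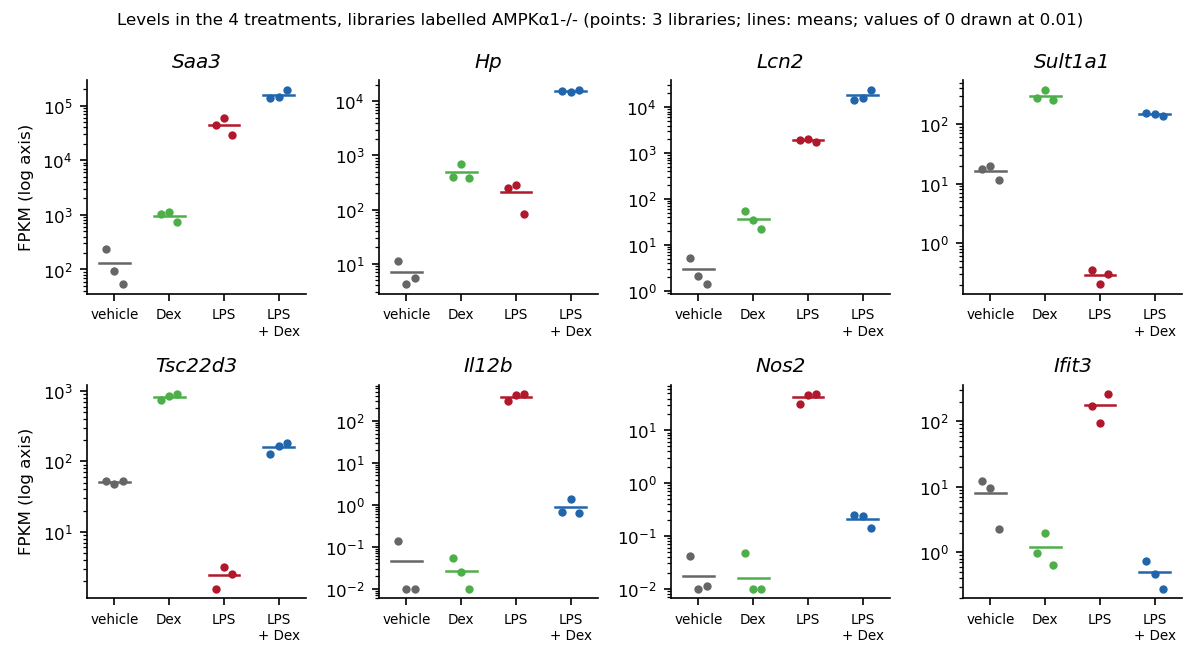
FPKM on log axes in the 12 libraries labelled AMPKα1-/- under vehicle, Dex, LPS and LPS + Dex, 1 panel per gene, 1 point per library and a line at each mean, with values of 0 drawn at 0.01. Il12b, Nos2 and Ifit3 are high with LPS alone (Ifit3 at 171, 95.1 and 260.1 FPKM), Tsc22d3 and Sult1a1 are lowest with LPS and highest with Dex, and Hp is highest with LPS + Dex (15517, 14745 and 16350.1 FPKM).

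The same comparison in wild-type BMDMs, from other libraries, called 3797 of the 10765 genes (35.3%), 1807 (16.8%) higher and 1990 (18.5%) lower. The balance turned to 2592 higher and 1399 lower after the rescaling without the 5 most abundant genes and to 2464 and 1834 after quantile normalization. Of the 2090 genes called higher in the libraries labelled AMPKα1-/-, 1511 were called higher and 0 lower in wild-type, with a median log2 fold change of 0.71 against 0.75. Of the 2115 called lower, 1679 were called lower and 0 higher, with a median of -0.79 in both. The median of interferon-stimulated genes was -3.68 in wild-type and -3.96 in libraries labelled AMPKα1-/-, that of the TCA cycle 0.71 and 0.65, and that of sterol genes -0.62 and -1.02.

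The test of the difference itself, the interaction of genotype with Dex under LPS, passed for 1 of 10765 genes (0.00929%), with 297 at an unadjusted p under 0.05 (limma, 23 libraries). That gene was F2rl2, which encodes the thrombin receptor PAR3. It was at 2.33, 4.28 and 2.27 FPKM in LPS and 0, 0.0217 and 0 FPKM in LPS + Dex in the libraries labelled AMPKα1-/-, against 0.132 and 0 FPKM in wild-type LPS and 0.0142, 0 and 0 FPKM in wild-type LPS + Dex. The interaction was -1.86 ± 0.27 (SE), adjusted p = 0.017, with log2 fold changes of -1.94 and -0.08 in the 2 genotypes. Without LPS the AMPKα1-/- libraries had 0.375, 1.03 and 1.37 FPKM with vehicle and 0.0605, 0 and 0.0188 FPKM with Dex. The levels are thus low, only LPS and vehicle libraries labelled AMPKα1-/- rose above 0.2 FPKM, and F2rl2 reached the minimum mean of 1 FPKM through the 3 LPS libraries labelled AMPKα1-/-, the group where it is high. With the minimum set over all 23 libraries it was not tested, with the replicate number as a block it was not called, and the call was also lost when any of 8 single libraries was left out.

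Next by p, but not past the threshold, came Tmem119 and Socs1. Tmem119, a membrane protein known as a marker of microglia, was at 1.16, 0.964 and 0.819 FPKM in LPS and 10.2, 15.4 and 11.7 FPKM in LPS + Dex in libraries labelled AMPKα1-/- and 0.803 and 0.912 FPKM with LPS and 26.4, 24.8 and 24.9 FPKM with LPS + Dex in wild-type (interaction -1.08 ± 0.22 (SE), adjusted p = 0.634). Socs1 fell by 3.93 in libraries labelled AMPKα1-/- and by 2.67 in wild-type (interaction -1.26 ± 0.33 (SE)). Il10rb, a chain of the interleukin-10 receptor, and Mir142hg, a host gene of a microRNA, had responses of 0.04 and 0.38 against -0.58 and -0.52.

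A p above the threshold does not show equal responses, so the 95% intervals of the difference between genotypes are given for genes with large effects. They were -1.08 to 0.72 for Il12b, -1.23 to 1.57 for Ccl22, -1.93 to 0.61 for Ifit3 and -0.81 to 0.15 for Tsc22d3 on the log2 scale. For Hp the interval was -2.28 to 0.64, for Saa3 -1.37 to 2.04 and for S100a8 -3.05 to 0.33, so that each of these intervals holds differences of more than 1 log2 unit. For Idh3b it was -0.29 to 0.42.

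**Figure D5:**
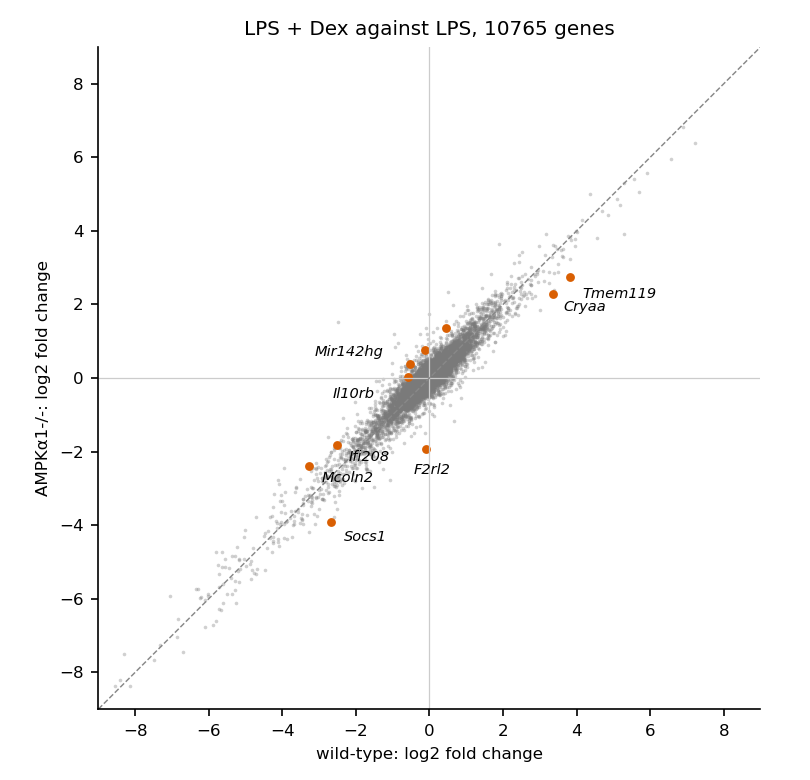
Change on Dex under LPS (log2 fold change) in wild-type BMDMs (x axis) and in those labelled AMPKα1-/- (y axis), 1 point per tested gene (10765), with the 10 genes of smallest interaction p in orange. F2rl2 lies at -0.08 and -1.94 and is the single gene past the threshold for the difference.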

How the data were processed

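RNA of cultured BMDMs was sequenced, and the authors deposited FPKM values per gene and library. The submitters' processing notes name TopHat2 2.0.12, Bowtie2 2.2.3, HTSeq 0.6.1 and DESeq2, and the builds GRCm38 and mm10. The study's methods state that N counts data or cultures of individual mice unless stated otherwise. GENCODE M21 (GRCm38) gave positions, and symbols for 46574 of 47069 identifiers. No source used here says whether counting used strand.

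FPKM are not counts, so log2(FPKM + 1) was tested with limma 3.58.1 in R 4.3.3 (empirical Bayes with a trend, 2-sided), keeping genes that averaged at least 1 FPKM over the 6 LPS and LPS + Dex libraries labelled AMPKα1-/-. Benjamini-Hochberg adjustment ran over all 10765 genes with a threshold of 0.05. LPS + Dex against LPS, Dex against vehicle and their interaction were fitted on the 12 AMPKα1-/- libraries, and the wild-type comparison and the genotype interaction on 23 libraries. Library totals were inferred from FPKM steps and GENCODE gene lengths. In the 6 libraries, 55.6% to 60.0% of values under 10 fragments were whole within 0.001, too few to recover counts. The code was tested on simulated data. Tables used Python 3.11.15, numpy 2.4.6, pandas 2.3.3 and scipy 1.17.1, and figures matplotlib 3.10.9.

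The groups compared, the 49 gene lists (938 entries) and the tests were chosen with earlier results of these data known. Named genes were the 12 largest rises and 12 largest falls among called genes with groups apart, up to 5 called members with the largest change and the most abundant member of each list, the 10 and 5 smallest interaction p-values, AMPK subunits, Nr3c1, macrophage and sex-linked markers, and the 5 largest FPKM shares. H2 genes outside this rule, list members named only for their call, and the genes under other observations, were named after their values were seen. Some list members are counted but not reported here by name.

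Replicate numbers come from the titles. Deviations from the group means correlated at 0.379, 0.384 and 0.358 between same-numbered LPS and LPS + Dex libraries, above 0.1, so the numbers were taken to pair them. The values quoted nevertheless come from the fit without this pairing, except where the block or another setting is named. The block was fitted within each genotype on all libraries of a fit, although same-numbered Dex and LPS + Dex libraries correlated at 0.210, -0.244 and -0.0657, and alternatively without the vehicle and Dex libraries. The settings varied were the pseudocount (0.1), the filter (none, or a mean of at least 5 FPKM, or the mean over all libraries of a fit), median centring, quantile normalization, no moderation, the replicate block, fewer or more libraries in the fit and leaving out each library. Rescaling without the 5 genes most abundant in LPS + Dex libraries labelled AMPKα1-/- and leaving out both libraries numbered 3 were added after seeing the data. The other libraries of the series were not used here.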

Additional observations from a re-analysis of the deposited data

Results flagged for a closer look

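F2rl2 drew attention because its response to Dex under LPS differed between genotypes in a test of the difference itself. The interaction was -1.86 on the log2 scale (adjusted p = 0.017, limma), and it was the 1 call among 10765 genes. With the replicate block there were 0 calls (393 genes at an unadjusted p under 0.05, limma). F2rl2 entered the test through the 3 LPS libraries labelled AMPKα1-/-, in which it is high, and would not have entered with the minimum of 1 FPKM set over all 23 libraries. F2rl2 was at 2.33, 4.28 and 2.27 FPKM in LPS BMDMs labelled AMPKα1-/-, and all 3 of these libraries lay above every library with Dex. In wild-type LPS BMDMs it was at 0.132 and 0 FPKM, so that a fall of the same size could not have been read there. Vehicle libraries were at 0.375, 1.03 and 1.37 FPKM in the AMPKα1-/- group and 0.0217, 0 and 0 FPKM in wild-type, so that the libraries without Dex also lay apart by genotype before LPS. What sets this level was not tested.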

How the results depend on the processing

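The count for LPS + Dex against LPS in libraries labelled AMPKα1-/- (4205) ran from 3368 to 4665 over the settings other than leaving out 1 library and from 3539 to 4059 when 1 library was left out. With the replicate block it was 4309 (2154 higher, 2155 lower), and 4195 with the block when the vehicle and Dex libraries were left out of the fit. In all, 4077 genes were called both ways, 128 without the block only and 232 with it only. Among genes named by the rule, the block changed the call of Calr, which passed with it (-0.42, adjusted p = 0.0388 against 0.0737), and no other in this comparison. Of the H2 and class II genes named outside the rule, H2-D1, H2-K1, H2-Ab1, H2-Aa, H2-Eb1 and Cd74 passed with it. Of 234 genes named by the rule and called, 18 lost the call under at least 1 of the alternatives, and 12 of 31 not called gained it. None of these reversed. The 18 were C1ra, Ccl5, Cd63, Cxcr4, Hsd11b1, Hspa5, Itgax, Lyz2, Nr3c1, Pdgfrb, Pgls, Prdx1, Rps9, Rpsa, Rrm2, Saa3, Taldo1 and Trib3, all but Saa3 with an adjusted p of 0.00587 or more. The 1 call of the genotype interaction became 7 with no filter on low values and 0 with a mean of at least 5 FPKM, with a filter over all libraries of the fit, with the replicate block and with only the 11 LPS and LPS + Dex libraries. Leaving out 1 library gave 0 to 2 calls. Dex against vehicle (2734) gave 1813 to 2295 calls with 1 library left out, the lowest without vehicle replicate 2. The wild-type count (3797) ran from 2607 to 4478 and the LPS by Dex interaction (2947) from 2394 to 3404 over all alternatives. Each lone sample left in an arm was assumed to vary like the other groups. Depth limits weak genes: below about 0.0592 FPKM on 1 kb a value is less than 1 fragment.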

Other observations

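Kit, below the minimum mean of 1 FPKM, was read in all 3 LPS libraries and hardly at all with LPS + Dex. It could not enter the test, and its values are a description. Kit, the receptor for stem cell factor, was at 0.978, 1.42 and 1.53 FPKM in LPS and 0.0170, 0.0688 and 0 FPKM in LPS + Dex in the libraries labelled AMPKα1-/-, at 0, 0.0461 and 0.0400 FPKM with vehicle and at 0, 0.0199 and 0 FPKM with Dex. At 0.0403 to 0.0592 FPKM per fragment on 1 kb, the levels other than LPS rest on few fragments.

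Genes outside the H2 region also followed the replicate number in all 4 AMPKα1-/- treatments, and 2 of them are given here. Vcp-rs, a copy related to the gene for the p97 ATPase, was at 0.492, 0.787 and 26.5 FPKM in LPS and 0.519, 0.475 and 33.8 FPKM in LPS + Dex, at 0.354, 0.590 and 18.1 FPKM with vehicle and at 0.231, 0.118 and 20.5 FPKM with Dex. Gm21188 was at 16.0, 14.7 and 0 FPKM in LPS and 18.7, 20.9 and 0 FPKM in LPS + Dex, at 20.0, 17.8 and 0 FPKM with vehicle and at 31.1, 52.9 and 0 FPKM with Dex. In wild-type LPS + Dex libraries Gm21188 was at 0, 13.8 and 0 FPKM and Vcp-rs at 0.723, 0.497 and 0.453 FPKM. Neither gene passed the test for LPS + Dex against LPS.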
